A study of Mus musculus with 4 samples.

Results

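Secreted Wnt ligands and their extracellular modulators were followed in cultured mouse bone marrow stromal cells with and without Cre-mediated deletion of Setd2. The group held 10 genes taken by symbol from the 44788 genes of the count table. They were the ligands Wnt5a, Wnt5b and Wnt10b, the R-spondins Rspo2 and Rspo3, the Frizzled-related proteins Sfrp1 and Sfrp2, the Dickkopf proteins Dkk2 and Dkk3, and Wif1. All 10 were found, and 9 passed the filter on low counts. Dkk2 did not.

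The cells came from C57BL/6J mice with loxP sites in both copies of Setd2 (Setd2 fl/fl) and were at passage 2. Control cells were infected with a lentivirus expressing GFP, and deleted cells with one expressing Cre recombinase. Both groups were kept in puromycin at 2 µg/ml for 4 days, and each gave 2 RNA sequencing libraries. The control cells are labelled wild type but carry the floxed alleles, and GFP was the only control, so loss of Setd2 and the presence of Cre cannot be told apart. The promoter of the virus is not given in the sources used here. Separate cultures or animals are not named for the 2 libraries of a group either. Each p-value therefore covers the scatter of these 4 libraries alone, and that scatter may be technical.

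Wnt proteins are lipid-modified signals that bind Frizzled receptors together with coreceptors such as Lrp5 and Lrp6. In the canonical branch the signal stabilises beta-catenin, which drives osteoblast formation from stromal cells and restrains adipocyte formation. Other branches act on cell shape and calcium without beta-catenin. R-spondins strengthen the signal through the Lgr receptors by removing the ubiquitin ligases Znrf3 and Rnf43 that clear Frizzled from the surface. Sfrp proteins and Wif1 bind Wnt ligands outside the cell, and Dickkopf proteins act mostly on the Lrp coreceptors.

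The library totals lay between 12371994 and 14315903 counts. Setd2 fell from 106 ± 0.0741 to 35.2 ± 4.09 CPM (read counts scaled to TMM-normalized library size, mean ± SD, n = 2 each), so the targeted gene matched the label in every library. GFP replicate 2 stood apart, with 7.45% of its counts on the 18S ribosomal RNA gene Rn18s-rs5 against 1.21% to 2.07% elsewhere. Stromal markers were present: all 12 had counts, and their summed level was 15900 to 16000 CPM with GFP and 19900 to 20900 CPM with Cre, mostly from Col1a1 and Col1a2. Of the 12, these collagen genes and Thy1 rose, Cxcl12 fell (-0.28, adjusted p = 0.00513), and the other 8, Pdgfra and Pdgfrb among them, were not called. Macrophage markers were present too, with counts for all 8 and sums of 1890 and 1950 CPM with GFP and 2220 and 2230 CPM with Cre. Most of these sums came from Lyz2, at 1390 and 1410 CPM with GFP and 1680 and 1690 CPM with Cre. Of the macrophage markers tested Cd68 and Lyz2 rose, Emr1 fell, and Ptprc, Csf1r, Itgam, Aif1 and Cd14 were not called. The 6 endothelial markers summed to 9.78 and 10.1 CPM with GFP and to 7.73 and 7.95 CPM with Cre. The 5 chondrocyte markers summed to 523 and 588 CPM with GFP and to 432 and 461 CPM with Cre, nearly all from Col2a1. Col2a1 itself fell (log2 fold change -0.31, edgeR adjusted p = 0.00298), Matn3 was not called, and Acan, Comp and Matn1 had too few counts to test. Smooth muscle and myofibroblast markers, 4 genes led by Acta2, summed to 10700 and 11300 CPM with GFP and to 9820 and 10200 CPM with Cre. Acta2 carries that sum and was not called (log2 fold change -0.16, adjusted p = 0.0712), while Myh11 (0.61) and Cnn1 (0.22) rose. Markers of erythroid, lymphoid and fat cells and of mature osteoblasts each summed to at most 1.31 CPM, with Sost, Mepe, Lep, Retn, Cidec, Cd3e, Ms4a1, Hbb-b1 and Hba-a1 at 0 counts. Whether cells other than stromal cells play a part in the results below was not tested. In such bulk libraries fewer cells of a type and less RNA per cell cannot be told apart.

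Among the members, Sfrp1, Dkk3 and Rspo3 fell in the Cre libraries and none rose. On the log2 scale Sfrp1 fell by 0.32, Dkk3 fell by 0.27 and Rspo3 fell by 0.86, with standard errors of 0.07, 0.06 and 0.23. The other 6 tested members, which include all 3 ligands, did not pass. These 3 calls of 9 made 33.3%, against 6.97% of all 14483 tested genes called in either direction and 3.22% called lower in Cre (edgeR's quasi-likelihood test, adjusted p under 0.05). The members had a median log2 fold change of -0.14, against -0.004 over all tested genes. In 6 of the 9 tested members the CPM values of the groups did not overlap, with Cre below in 5 and above in 1. That is 66.7%, against 50.0% of all tested genes.

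**Figure D1:**
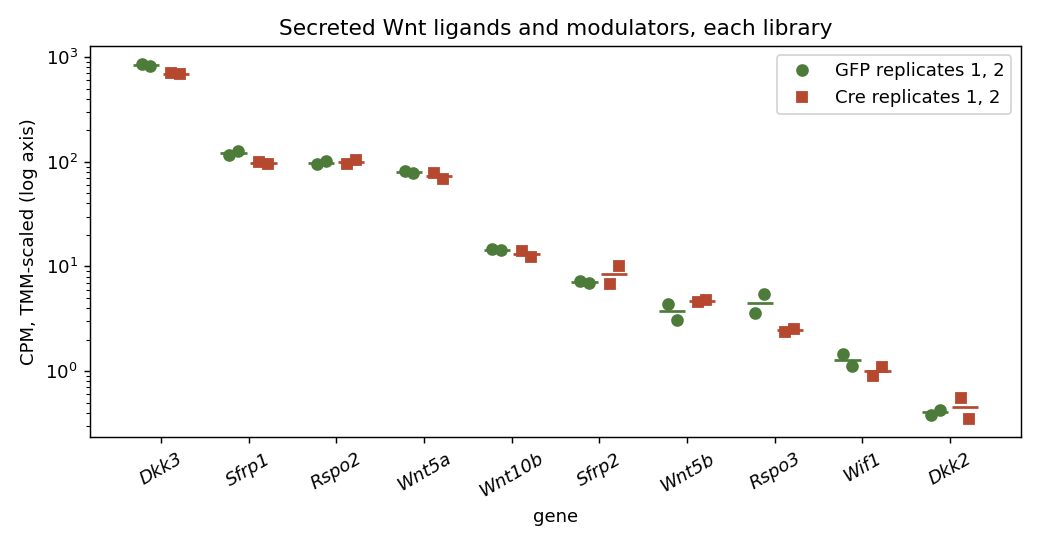
Normalized counts (CPM, log axis) of the 10 genes in each of the 4 libraries, with GFP as circles, Cre as squares and group means as bars. Dkk3 lies between 695 and 866 CPM and Dkk2 between 0.345 and 0.553 CPM, and the Cre points of Sfrp1, Dkk3 and Rspo3 lie below both GFP points.

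The genes differed widely in abundance. Divided by the length of a gene's merged exons, Dkk3 had the highest mean level over the 4 libraries, 229 CPM per kilobase. Sfrp1 followed at 24.9, Rspo2 at 19.4, Wnt5a at 9.84, Wnt10b at 4.07 and Sfrp2 at 3.63 CPM per kilobase. Wnt5b stood at 1.58, Rspo3 at 1.13, Wif1 at 0.469 and Dkk2 at 0.115 CPM per kilobase. The library ranges of Wnt10b (3.65 to 4.36) and Sfrp2 (3.18 to 4.71) overlapped, as did those of Wnt5b (1.15 to 1.79) and Rspo3 (0.760 to 1.76), so the order within these pairs is not set. Per length of the longest transcript Rspo2 had 29.7 CPM per kilobase and passed Sfrp1, so their order depends on the transcript model. Dkk3 made up between 76.8% and 79.4% of the summed level per kilobase of the 10 genes in every library.

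Wnt5a, the most abundant of the 3 ligands and best known for signalling without beta-catenin, is found on chromosome 14 at 28504543 to 28527448 of build GRCm38, to which all positions here refer. Its counts were 1076 and 926 in GFP replicates 1 and 2 and 1141 and 996 in Cre replicates 1 and 2, or 81.8 and 78.7 CPM against 78.8 and 68.7 CPM. The groups overlapped, since Cre replicate 1 lay beside GFP replicate 2. Its log2 fold change was -0.12 with a 95% interval from -0.27 to 0.03 (adjusted p = 0.358). An antisense gene, Gm2670, with 16 to 32 counts per library, lies over 4.58% of its exon bases.

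Wnt10b, a ligand known to favour osteoblast over adipocyte formation, lies on chromosome 15 from 98770712 to 98778206. It had 14.8 and 14.2 CPM with GFP and 14.0 and 12.4 CPM with Cre. Both Cre values lay just below the GFP values, a log2 fold change of -0.14 with a 95% interval from -0.38 to 0.10 (adjusted p = 0.556). Wnt5b, the close relative of Wnt5a, lies on chromosome 6 from 119432531 to 119544824. It had 58 and 36 counts with GFP and 66 and 69 counts with Cre, which is 4.41 and 3.06 CPM against 4.56 and 4.76 CPM. It was the only tested member with both Cre values above both GFP values, but GFP replicate 2 was low on its own. The log2 fold change was 0.31 (95% interval -0.11 to 0.72, adjusted p = 0.419) and it was 0.61 with GFP replicate 1 left out but 0.08 with GFP replicate 2 left out.

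Of the R-spondins, Rspo2 was the abundant one and Rspo3 the one that fell. Rspo2 lies on chromosome 15 from 43020788 to 43171594 and had 94.7 and 101 CPM with GFP and 96.2 and 104 CPM with Cre. The values of the groups interleaved, and the log2 fold change was 0.03 with a 95% interval from -0.11 to 0.17 (adjusted p = 0.833). Rspo3 lies on chromosome 10 from 29453106 to 29535867. Its counts were 47 and 64 with GFP and 34 and 37 with Cre, which gave 3.57 and 5.44 CPM against 2.35 and 2.55 CPM. Both Cre libraries were low and alike, while the GFP libraries lay apart from each other with replicate 2 the higher.

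The log2 fold change of Rspo3 was -0.86 with a standard error of 0.23 and a 95% interval from -1.34 to -0.39 (adjusted p = 0.0192). This put it within the lowest 0.794% of all tested fold changes. It was -0.54 without GFP replicate 2 (adjusted p = 0.348), -1.15 without GFP replicate 1 (adjusted p = 0.219) and -0.80 without Cre replicate 1 (adjusted p = 0.118). Scaling by library size alone gave an adjusted p of 0.0524, no low-count filter one of 0.297, and DESeq2 gave it no adjusted p. The antisense gene Gm48159 lies over 13.1% of its exon bases, and the strand setting of the counts is not given, so part of the Rspo3 count is uncertain. The size of that part was not measured. The level of Rspo2 per kilobase was 16.0 and 11.2 times that of Rspo3 in the GFP libraries and 24.7 times in both Cre libraries. Such a ratio within a library does not depend on how libraries are scaled.

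Both Frizzled-related genes encode proteins that hold a Wnt-binding domain like that of the receptors, and of the 2 only Sfrp1 passed the test. Sfrp1, on chromosome 8 from 23411383 to 23449632, had 1526 and 1478 counts with GFP and 1429 and 1378 with Cre. In normalized units these were 116 and 126 CPM against 98.7 and 95.1 CPM. The 2 Cre libraries lay close together and clear below both controls. The fall was 19.8% in the group means, from 121 ± 6.86 to 96.9 ± 2.58 CPM (mean ± SD, n = 2 each), with a log2 fold change of -0.32 and a 95% interval from -0.45 to -0.18 (adjusted p = 0.00239).

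Sfrp1 had the smallest p-value of the members, and its call held both with scaling by library size alone (adjusted p = 0.0352) and with DESeq2 (adjusted p = 0.0114). Without GFP replicate 2 it was at -0.26 (adjusted p = 0.293), without GFP replicate 1 at -0.37 (adjusted p = 0.219) and without Cre replicate 2 at -0.29 (adjusted p = 0.0690). No low-count filter ended the call as well (adjusted p = 0.173).

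Sfrp2 lies on chromosome 3 from 83765750 to 83774314. It had 96 and 82 counts with GFP and 99 and 147 with Cre, or 7.29 and 6.97 CPM against 6.84 and 10.1 CPM. Cre replicate 2 alone was high, and the groups overlapped. The log2 fold change was 0.25 with a 95% interval from -0.09 to 0.59 (adjusted p = 0.420), and it was -0.06 without Cre replicate 2. The antisense gene Gm26771 lies over 16.1% of its exon bases. Per kilobase, Sfrp1 was 7.83 and 8.88 times as high as Sfrp2 in the GFP libraries and 7.11 and 4.62 times as high in the Cre libraries.

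Dkk3, the divergent Dickkopf protein that does not act on the Lrp coreceptors as its relatives do, lies on chromosome 7 from 112116019 to 112159482. It had 11396 and 9627 counts with GFP and 10142 and 10069 with Cre. On the normalized scale these were 866 and 819 CPM against 701 and 695 CPM. Here too the Cre libraries nearly coincided and lay below both controls, although the raw counts of the groups overlapped because the Cre libraries were deeper. The group means fell by 17.2%, from 842 ± 33.5 to 698 ± 4.22 CPM, with a log2 fold change of -0.27 and a 95% interval from -0.40 to -0.14 (adjusted p = 0.00589).

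The log2 fold change of Dkk3 stayed between -0.31 and -0.23 in all alternatives that were run, but the call did not. Leaving out any 1 library ended it, with adjusted p-values of 0.248 and 0.226 when GFP replicate 1 or GFP replicate 2 was dropped, and of 0.130 and 0.150 when Cre replicate 1 or Cre replicate 2 was. Scaling by library size alone (adjusted p = 0.103) and no low-count filter (adjusted p = 0.170) ended it too. DESeq2 called it with an adjusted p of 8.37e-05.

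Dkk2 and Wif1 were near the limit of detection. Dkk2, which binds Lrp5 and Lrp6, lies on chromosome 3 from 132085266 to 132180304. It had 5 and 5 counts with GFP and 8 and 5 with Cre, too few for the test. Wif1, on chromosome 10 from 121034004 to 121100642, had 19 and 13 counts with GFP and 13 and 16 with Cre, or 1.44 and 1.11 CPM against 0.898 and 1.10 CPM. Its log2 fold change of -0.36 had a 95% interval from -1.10 to 0.39 (adjusted p = 0.634), so neither a fall nor a rise within it can be excluded at this depth.

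**Figure D2:**
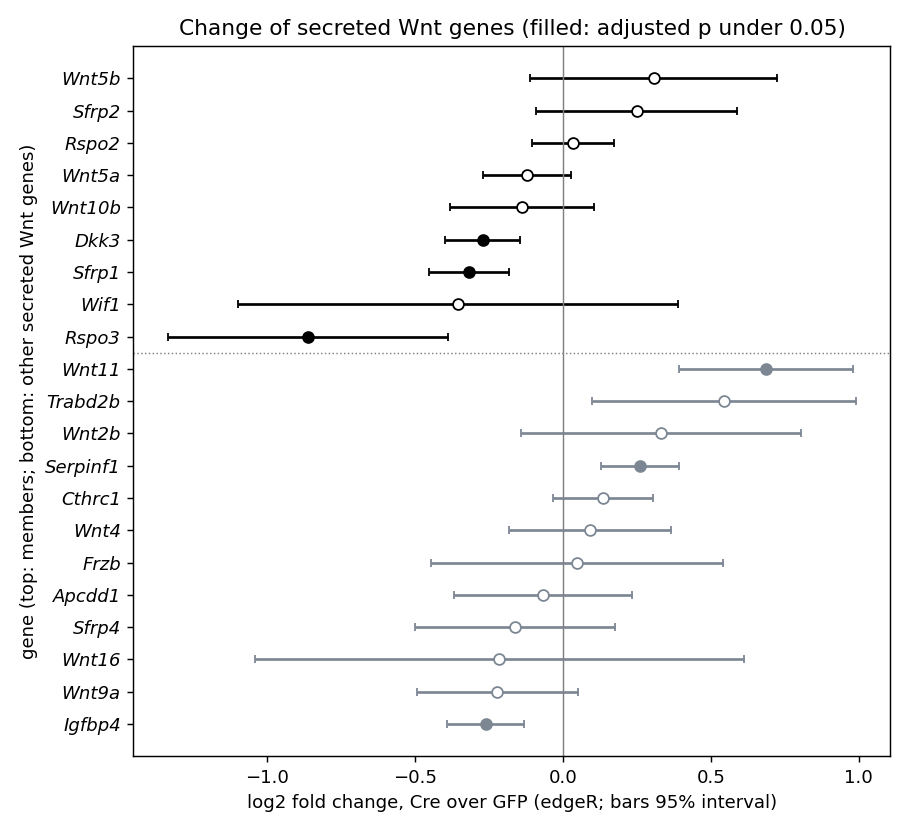
Log2 fold change, Cre over GFP, with 95% intervals for the 9 tested members (black, top) and 12 other tested Wnt ligand and modulator genes (grey, bottom). Filled points passed an adjusted p of 0.05: Dkk3, Sfrp1, Rspo3 and Igfbp4 below 0, Wnt11 and Serpinf1 above it.

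Added up by role per kilobase, the 3 ligands came to 16.5 and 15.4 CPM per kilobase with GFP and 15.9 and 14.2 with Cre. The 2 R-spondins came to 19.7 and 21.6 against 19.6 and 21.2 CPM per kilobase, so the fall of Rspo3 hardly moved their sum. The Wnt-binding proteins Sfrp1, Sfrp2 and Wif1 came to 30.5 and 32.4 with GFP and 26.1 and 26.9 CPM per kilobase with Cre, without overlap. Most of each sum was Sfrp1, at 26.5 and 28.7 with GFP and 22.6 and 21.7 CPM per kilobase with Cre. Sfrp2 had 3.39 and 3.24 against 3.18 and 4.71 CPM per kilobase, which overlapped. The Dickkopf genes Dkk2 and Dkk3 came to 258 and 244 against 209 and 207 CPM per kilobase, nearly all from Dkk3. Within a library, the level of Sfrp1 per kilobase was 2.54 and 2.86 times that of Wnt5a with GFP and 2.24 and 2.48 times with Cre. The ratio of Wnt5a to Wnt10b was between 2.40 and 2.46 in every library, and that of Dkk3 to Sfrp1 was 9.72 and 8.48 with GFP and 9.24 and 9.51 with Cre. Of 7 such pairs compared, the ratios of the groups did not overlap in 5: Sfrp1 to Sfrp2, Rspo2 to Rspo3, Wnt5a to Wnt5b, Sfrp1 to Wnt5a and Dkk3 to Wnt5a. Taken singly, 50.0% of all tested genes did not overlap, and the share over all gene pairs was not computed. Several pairs hold the same gene, so they are not independent of each other. The two-sided exact permutation test used for the ratios cannot go below 0.333 with 2 libraries against 2 (0.466 adjusted over the pairs), so it tells nothing about these pairs, and differences in response between relatives such as Sfrp1 and Sfrp2 are given as values without a usable test.

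The 3 members that fell share neither chromosome nor family, and their transcription units span 38250 base pairs for Sfrp1, 43464 for Dkk3 and 82762 for Rspo3. Those of the other members range from 7495 base pairs in Wnt10b to 150807 in Rspo2, and the called genes lie inside that range. Whether gene length or position bears on the calls was not tested.

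Among 16 other Wnt ligand genes, 5 had enough counts to test, and Wnt11 rose. Wnt11, a ligand known mainly for signalling without beta-catenin, had 88 and 92 counts with GFP and 156 and 181 with Cre, or 6.69 and 7.82 against 10.8 and 12.5 CPM. Both Cre libraries were clearly the higher. Its log2 fold change was 0.69 ± 0.14 (standard error, adjusted p = 0.00250), and DESeq2 gave an adjusted p of 0.114. The antisense gene Gm8398 lies over 8.80% of its exon bases. Wnt9a had the highest mean of these ligands over the 4 libraries, 2.99 CPM per kilobase of merged exons (log2 fold change -0.22, adjusted p = 0.359). In the Cre libraries alone Wnt11 (2.81) and Wnt4 (2.80) had means beside its 2.76 CPM per kilobase, so their order is not set. Wnt3, Wnt3a, Wnt7a and Wnt9b had no counts in any library.

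Of 17 other genes listed with the secreted modulators, 7 were tested. Not all of them are secreted, since Trabd2b encodes a membrane protease. Serpinf1, the gene of pigment epithelium-derived factor, had the highest level per kilobase of that list, 297 CPM, and rose from 619 and 656 CPM to 728 and 797 CPM (log2 fold change 0.26, adjusted p = 0.0113). Igfbp4, an IGF-binding protein also reported to dampen Wnt signalling, fell from 285 and 274 CPM to 230 and 237 CPM (-0.26, adjusted p = 0.00902), a call lost with scaling by library size alone (adjusted p = 0.110). Dkk1, Dkk4, Sost, Sostdc1, Sfrp5 and Ndp had no counts in any library. Dkk3 and Sfrp1 were thus the abundant members of their families in these cells, beside Sfrp4 at 1.73 and Frzb at 0.817 CPM per kilobase. Neither Sfrp4 (log2 fold change -0.16, adjusted p = 0.631) nor Frzb (0.05, adjusted p = 0.945) passed.

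Genes for release and reception of the ligands mostly did not pass. None of 10 genes of Wnt processing and release was called, and Gpc4, a glypican with the highest level among them per kilobase of merged exons (66.6 CPM), stood at 0.15 (adjusted p = 0.156). Per kilobase of the longest transcript Wls, the carrier of Wnt ligands to the cell surface, was higher (104 CPM), and it stood at -0.16 (adjusted p = 0.138). Of 15 tested Frizzled receptors and coreceptors, Fzd1 (-0.50, adjusted p = 0.000137) and Fzd8 (-0.41, adjusted p = 0.00521) fell and none rose, with a median of -0.11. Fzd1 went from 55.6 and 48.5 CPM to 36.8 CPM in both Cre libraries. Ptk7, the coreceptor with the highest level per kilobase, stood at -0.07 (adjusted p = 0.566). Of 7 tested receptors and partners of the R-spondins and Dickkopf proteins, Sdc4, a heparan sulfate proteoglycan reported to bind R-spondin 3, fell by 0.25 on the log2 scale (adjusted p = 0.0199). It also had the highest level per kilobase in its list. Fzd8 and Sdc4 were not called by DESeq2 (adjusted p = 0.138 and 0.137), nor Sdc4 with scaling by library size alone (adjusted p = 0.159).

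The Lgr receptors through which R-spondins act gave unlike values. Lgr4 had 35.3 and 34.7 CPM with GFP and 36.7 and 32.7 CPM with Cre, a log2 difference of -0.01 (adjusted p = 0.961), and Lgr6 stood at 0.09 (adjusted p = 0.607). Lgr5, at far lower levels, had 20 and 19 counts with GFP and 13 and 7 with Cre, a log2 fold change of -1.17 that did not pass (adjusted p = 0.0622). These receptors were singled out after their values were seen.

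Inside the cell, 1 of 22 genes of the beta-catenin pathway passed, the transcription factor gene Tcf7l2 (-0.36, adjusted p = 0.0414). Its call was lost with the replicate number as a block (adjusted p = 0.0532), with scaling by library size alone (adjusted p = 0.149) and with DESeq2 (adjusted p = 0.408). Ctnnb1, the gene of beta-catenin and the highest of that list, had 690 and 712 CPM with GFP and 685 and 679 CPM in Cre libraries (-0.04, 95% interval -0.17 to 0.09). Of 14 tested transcriptional targets of beta-catenin only Jun rose (0.32, adjusted p = 0.00331), and their median was -0.04. The feedback target Axin2 had 4.94 and 4.08 CPM against 4.42 and 3.86 CPM, which overlapped (-0.13, 95% interval -0.53 to 0.27). Wisp2, the target with the highest level per kilobase, stood at 0.21 (adjusted p = 0.0552). Of 16 tested genes of non-canonical signalling Daam2, a formin that binds Dishevelled, fell by 0.56 on the log2 scale (adjusted p = 0.000345), while Rac1, the highest per kilobase, stood at 0.05 (adjusted p = 0.715).

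Over these 8 lists 3 genes rose and 6 fell of 96 tested, 9.38%, beside the 6.97% of all genes, with a median of -0.05. Scaling by library size alone gave 3 rises and 3 falls, and for the members 0 rises and 1 fall. Without either GFP replicate 1 or GFP replicate 2 none of the 9 calls held, nor did any call among the members. Over all genes those settings left 12 calls of 14948 tested and 0 of 15034. Without Cre replicate 1 Igfbp4, Fzd8, Sdc4 and Tcf7l2 were not called by edgeR (log2 fold changes -0.232, -0.378, -0.202 and -0.328). Without Cre replicate 2 Igfbp4, Serpinf1, Sdc4, Tcf7l2 and Jun were not (log2 fold changes -0.285, 0.193, -0.295, -0.378 and 0.271).

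**Figure D3:**
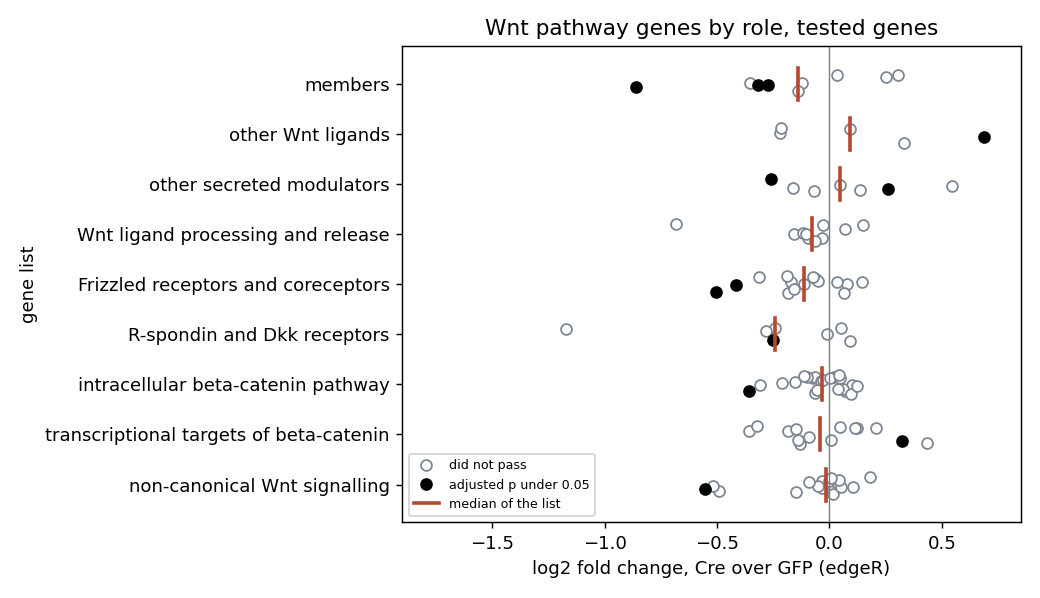
Log2 fold change, Cre over GFP, of each tested gene by list, with filled points for an adjusted p under 0.05 and a bar at the median of each list. The medians run from -0.24 for R-spondin and Dkk receptors to 0.09 for the other Wnt ligands.

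**Figure D4:**
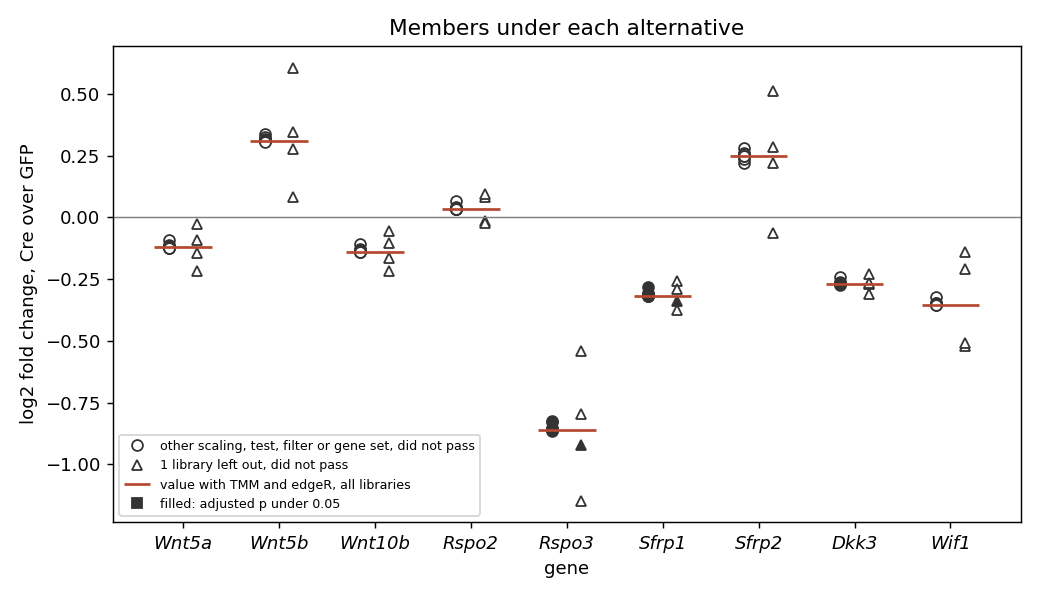
Log2 fold change of the 9 tested members under each alternative: circles for another scaling, test, filter or gene set, triangles with 1 library left out, filled where the adjusted p was under 0.05, and a bar for the value with all libraries. Rspo3 spreads from -1.15 to -0.54, while Sfrp1 (-0.37 to -0.26) and Dkk3 (-0.31 to -0.23) vary less.

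The genes whose pattern was most like that of Sfrp1, the member with the smallest p-value, were Rragd, Homer1 and Cask. Likeness was the Euclidean distance between log2 CPM values centred on each gene's own mean over the 4 libraries, searched over 10897 genes with a mean of at least 5 CPM. Their distances were 0.0230, 0.0241 and 0.0253. Cask, a membrane scaffold kinase gene, went from 64.4 and 68.8 CPM to 53.5 and 51.9 CPM and was the only one of them to pass the test (adjusted p = 0.00343).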

How the data were processed

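The authors deposited raw read counts per gene, whole numbers for 44788 genes in 4 libraries, without normalization. The aligner was HISAT2 and the build GRCm38, according to the submitters' processing notes. The sources used here do not give the counting program, annotation or strand setting. Per the labels' protocols, an Illumina TruSeq RNA kit was used.

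The deposited counts went unchanged into edgeR 4.0.16 (R 4.3.3): filterByExpr (minimum count 10, minimum total 15) kept 14483 genes, TMM factors were 0.951 to 1.03, and the quasi-likelihood F-test used group alone. Benjamini-Hochberg adjustment ran over all tested genes, threshold 0.05. Standard errors are the fold change over the root of F. Replicates differed by more than counting noise (median chi-square 3.85 times the expected value for GFP and 1.78 for Cre, over genes with more than 200 counts in sum). Exon lengths and overlaps came from GENCODE M21 and positions from RefSeq on GRCm38.p6.

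Genes and lists were chosen with earlier results of these data known. Named were all members, called genes of the other lists, the highest gene per kilobase in each, and the 3 most alike to the top member. Of 125 list entries, Tiki2 is an older name of Trabd2b. Alternatives were other scalings, DESeq2 1.42.0, limma-voom 3.58.1, other filters, a replicate block, robust dispersion, no abundant noncoding RNA genes, and leaving out each library. Where this left 1 library in a group, its spread was assumed to equal that of the other group.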

Additional observations from a re-analysis of the deposited data

How the results depend on the processing

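The count of 3 falling members was unchanged with median-of-ratios scaling, limma-voom, a minimum of 1 CPM in 2 libraries, robust dispersion and without 10 genes high in GFP replicate 2 (abundant noncoding RNAs and Lars2). DESeq2 gave 2 falls, with an adjusted p for 5 members, scaling by library size alone 1, and no low-count filter 0. Over all genes these settings called 380 of 9827, 532 of 14483 and 30 of 25476. Leaving out 1 library gave 0 to 1. With edgeR and no filter 3 falls had an unadjusted p under 0.05, as had 3 without GFP replicate 1 and 2 without GFP replicate 2, where 2762, 2154 and 2197 of all genes had one. No member rose in any alternative, while an unadjusted p under 0.05 was reached by 1 rise without GFP replicate 1 and by 1 without Cre replicate 1.

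For the other Wnt pathway genes, 6 falls became 3 with scaling by library size alone, 3 with DESeq2, 7 with limma-voom, 7 with a minimum of 1 CPM in 2 libraries, 9 with robust dispersion, 0 without a low-count filter (14 at an unadjusted p under 0.05) and 0 to 3 with 1 library left out. Their 3 rises became 2 with DESeq2, 4 with limma-voom and 4 without the abundant noncoding RNA genes. With a minimum of 1 CPM in 2 libraries there were 5, with robust dispersion 5 and without a low-count filter 0 (10 at an unadjusted p under 0.05). Calls over all genes moved as well, from 1009 of 14483 with TMM and edgeR. They were 1042 of 14483 with limma-voom, 1159 of 13899 with the 1 CPM minimum and 1334 of 14483 with robust dispersion. Without the abundant noncoding RNA genes they were 1004 of 14528. Without GFP replicate 1 and without GFP replicate 2, where edgeR called 0 of them, 11 and 13 falls and 7 and 6 rises had an unadjusted p under 0.05. The cause was not tested.

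With the replicate block the members kept 3 falls and the other Wnt pathway genes had 5 falls and 3 rises, where 829 of 14483 genes were called. Numbers shared between the groups were not taken as pairs, since their deviations correlated at -0.00886 over genes. Depth limits the low members most: Wnt5b, Rspo3, Wif1 and Dkk2 had at most 69 counts in any library.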

Other observations

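Among secreted Wnt genes too low to test, Wnt7b had 1 count in each GFP library and 5 counts in each Cre library, and Notum, the gene of an extracellular Wnt deacylase, had 3 and 4 against 6 and 9. Antisense genes lie over 38.1% of the exon bases of Notum (Myadml2os and Notumos) and over 6.61% of those of Wnt7b (AU022754), so part of these counts is uncertain. Both Wnt7b and Notum were singled out after their values were seen, and no test was made. Trabd2b, a membrane protease reported to inactivate Wnt ligands, had 44 and 28 counts with GFP and 63 and 59 with Cre, a log2 fold change of 0.54 that did not pass edgeR's test (adjusted p = 0.137).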
